A study of Rattus norvegicus with 12 samples.

Results

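Transcripts of 7 genes of ADP-ribosylation and nicotinamide adenine dinucleotide (NAD) supply were followed in rat INS-1E cells. The genes were the DNA-damage sensor Parp1, the interferon-inducible family members Parp9, Parp10, Parp12 and Parp14, the PARP9 partner Dtx3l, and Nampt. They were chosen by symbol from the 34034 genes of the count table. Of the 7 genes, 7 passed the filter on low counts, which kept 14324 genes, each above 1 CPM (counts scaled to a common library size) in at least 2 libraries.

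INS-1E is an established rat insulinoma β-cell line, and the labels give all cells as wild type. RNA was sequenced in 12 libraries, with 3 biological replicates in each of 4 groups. Untreated cells received no cytokine. IL-1βlow cells were kept for 72 h with interleukin-1β (IL-1β) at 10 pg/ml, renewed daily without a change of medium. CYT cells were challenged for 16 h with IL-1β at 100 pg/ml plus interferon-γ (IFN-γ) at 5 ng/ml. IL-1βlow + CYT cells were conditioned in the first way, given new medium and then challenged in the second way. The question of the design is how low-dose preconditioning alters the response of β-cells to the challenge. The labels do not say which cultures the replicates came from, so p-values measure the spread between these libraries. As a single insulinoma line cultured alone, INS-1E leaves out the other islet and immune cells of the tissue.

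PARP enzymes transfer ADP-ribose from NAD to proteins and release nicotinamide. PARP1 builds long ADP-ribose chains at DNA breaks and can draw heavily on cellular NAD, a process known from chemically damaged β-cells, whereas PARP10, PARP12 and PARP14 attach single ADP-ribose units. PARP9 and the ubiquitin ligase DTX3L form a complex known from interferon responses, and NAMPT catalyses the rate-limiting step that returns nicotinamide to NAD.

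Promoter windows are shown because those of members that moved with the challenge differed in the interferon motifs they held. A link between motifs and expression was not tested. RefSeq windows of the GRCr8 build, from 250 bases before to 50 bases after the annotated start, were found for 5 of the 7 genes. Parp10 and Nampt had no entry. Capitals mark matches to the core of the interferon-stimulated response element, searched on both strands as GAAA and GAAA separated by any 2 bases. Parp12 lies on the minus strand of chromosome 4 (chr4:68850492-68850791), Parp14 on the plus strand of chromosome 11 (chr11:78407884-78408183), Dtx3l on the plus strand of chromosome 11 (chr11:78319975-78320274), Parp9 on the minus strand of chromosome 11 (chr11:78318962-78319261) and Parp1 on the plus strand of chromosome 13 (chr13:94839234-94839533). Parp9 and Parp1 are shown as the members with a window and no match. The annotated Parp9 span overlaps that of Dtx3l by 185 bases, so it extends upstream of the start used for its window. Sequence around that farther end was not searched as a Parp9 window.
Parp12: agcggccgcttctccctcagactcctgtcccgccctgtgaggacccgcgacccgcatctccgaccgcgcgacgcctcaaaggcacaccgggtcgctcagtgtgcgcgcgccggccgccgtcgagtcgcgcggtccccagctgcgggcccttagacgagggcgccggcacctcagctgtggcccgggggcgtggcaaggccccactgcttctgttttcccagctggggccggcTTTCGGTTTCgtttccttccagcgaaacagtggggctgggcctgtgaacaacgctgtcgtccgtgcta
Parp14: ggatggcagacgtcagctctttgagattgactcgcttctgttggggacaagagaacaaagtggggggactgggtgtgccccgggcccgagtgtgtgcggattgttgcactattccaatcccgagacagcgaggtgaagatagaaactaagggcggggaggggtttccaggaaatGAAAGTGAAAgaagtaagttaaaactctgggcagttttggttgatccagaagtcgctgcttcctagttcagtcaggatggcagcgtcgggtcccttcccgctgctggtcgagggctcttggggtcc
Dtx3l: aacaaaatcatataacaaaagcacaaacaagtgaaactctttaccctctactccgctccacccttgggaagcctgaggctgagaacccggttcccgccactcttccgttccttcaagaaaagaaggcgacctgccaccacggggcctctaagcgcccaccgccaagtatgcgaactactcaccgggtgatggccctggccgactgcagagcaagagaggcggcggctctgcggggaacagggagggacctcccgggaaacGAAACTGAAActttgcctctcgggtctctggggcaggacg
Parp9: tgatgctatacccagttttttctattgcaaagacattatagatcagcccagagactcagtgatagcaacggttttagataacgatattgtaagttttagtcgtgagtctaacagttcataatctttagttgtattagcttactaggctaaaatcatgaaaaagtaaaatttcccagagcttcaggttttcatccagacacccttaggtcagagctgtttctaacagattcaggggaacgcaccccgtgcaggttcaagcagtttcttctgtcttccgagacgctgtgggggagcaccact
Parp1: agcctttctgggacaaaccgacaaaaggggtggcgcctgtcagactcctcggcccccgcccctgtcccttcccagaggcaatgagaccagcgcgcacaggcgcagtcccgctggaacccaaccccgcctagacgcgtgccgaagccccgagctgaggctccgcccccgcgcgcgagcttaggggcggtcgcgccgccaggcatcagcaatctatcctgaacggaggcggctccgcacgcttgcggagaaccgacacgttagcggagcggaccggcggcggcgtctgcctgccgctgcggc

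The core occurred in 3.92% of all 33469 windows, and in those of Parp12, Parp14 and Dtx3l. The Parp12 match TTTCGGTTTC, read on the opposite strand, lay from 18 to 9 bases before the start. The Parp14 match GAAAGTGAAA lay from 76 to 67 bases before it, and the Dtx3l match GAAACTGAAA lay within the transcribed part, 11 to 20 bases from the start. The interferon-γ-activated site, searched as TTC and GAA separated by any 3 bases, which reads the same on both strands, occurred in 8.87% of all windows. Of these 5 genes, Parp14 alone carried it, as TTCCAGGAA from 87 to 79 bases before the start, without overlap with the other motif. Windows holding both motifs made up 0.514% of the total. The Parp9 and Parp1 windows held neither motif. If the Dtx3l span begins at the start used here, its match lies within the 185 bases that the Parp9 and Dtx3l spans share. These are matches of letters, and binding was not measured.

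Total counts per library ran from 15812640 to 20246806, and member counts per library from 174 for Parp9 to 4540 for Parp1. All 8 β-cell marker genes exceeded 1 CPM. Their summed level was 42800 to 49656 CPM in untreated, 38168 to 44749 CPM in IL-1βlow, 13934 to 14881 CPM in CYT and 19895 to 25487 CPM in IL-1βlow + CYT libraries. In bulk libraries fewer cells of a type and less RNA per cell cannot be told apart. The 9 immune, endothelial and fibroblast markers summed to 1.07 to 6.02 CPM, with Ptprc, the pan-leukocyte marker, at 0 in every library. Those sums were 1.07 to 1.66 CPM in untreated, 1.13 to 2.71 CPM in IL-1βlow, 2.86 to 4.40 CPM in CYT and 4.86 to 6.02 CPM in IL-1βlow + CYT libraries. Among these markers, mean Adgre1, a macrophage marker, was 0.0191 CPM in untreated, 1.35 CPM in CYT and 2.79 CPM in IL-1βlow + CYT cells. Mean Col1a2, a collagen gene, was 0.396 CPM in untreated, 0.984 CPM in IL-1βlow, 0.235 CPM in CYT and 1.18 CPM in IL-1βlow + CYT cells. The part of either marker shift in the gene changes given here was not tested.

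CYT raised 6 of the 7 genes, all but Parp1, by 2.04-fold to 2.82-fold over untreated cells. A gene was counted as passed when its Benjamini-Hochberg adjusted p in edgeR's quasi-likelihood test was below 0.01 and its log2 fold change exceeded 1 in size, or 0.6 for IL-1βlow against untreated cells. By that rule 10.0% of all genes tested rose with CYT and 11.6% fell. Without CYT replicate 3, Parp10, Parp12, Parp14 and Nampt passed, 4 of the 7, and without CYT replicate 2 Parp10 did not, leaving 5. With the replicate number as a block Parp9 did not pass, at 0.99, also leaving 5. The median log2 fold change was 1.09 over the 7 genes and -0.04 over all genes tested. CYT and untreated libraries did not overlap for any of the 7 genes, which was also true of 69.3% of all genes.

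**Figure D1:**
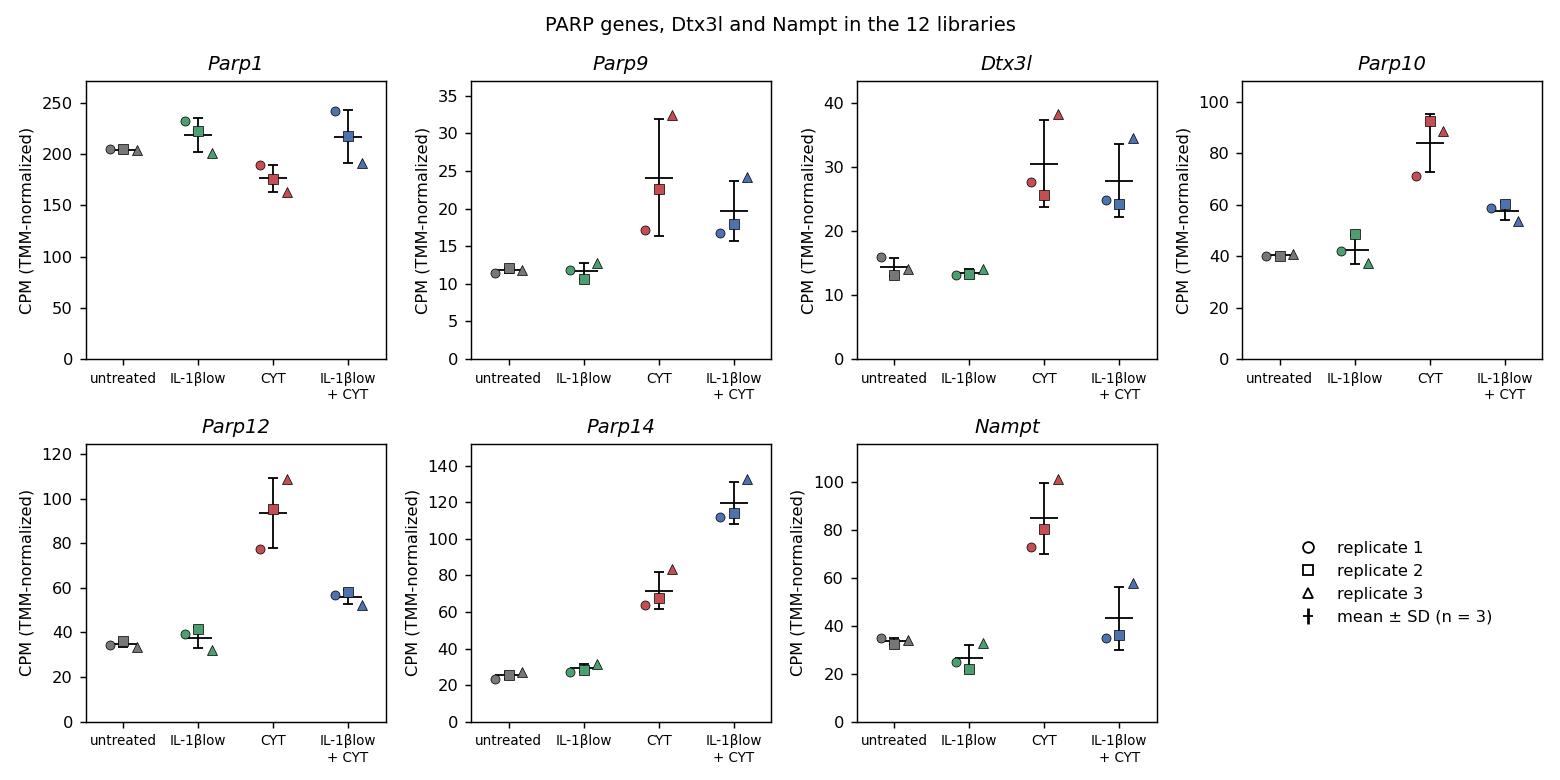
Level of each gene, in CPM after TMM normalization, in the 12 libraries of the 4 groups. Points are libraries, and horizontal lines with bars are the mean ± SD of 3 replicates. Parp14 is highest in IL-1βlow + CYT, at 112 to 133 CPM, whereas the other 5 genes raised by CYT have their highest mean in CYT.

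Parp1, the sensor of DNA breaks, was measured at 205, 205 and 204 CPM in untreated cells and at 233, 223 and 201 CPM in IL-1βlow cells. It was at 189.9, 176 and 163 CPM in CYT cells and at 243, 218 and 191 CPM in IL-1βlow + CYT cells. All 3 CYT libraries were below all others, while the remaining 3 groups overlapped. The log2 difference of CYT from untreated cells was -0.21 (SE 0.09), with an edgeR quasi-likelihood adjusted p of 0.061. In IL-1βlow + CYT against CYT cells it was 0.30 (SE 0.09, adjusted p 0.016). With the replicate number as a block that difference was 0.30 (adjusted p 0.0016), under the fold minimum. Its adjusted p ran from 0.0016 to 0.13 over the alternative fits. The difference of IL-1βlow + CYT from untreated cells was 0.09 (95% confidence interval -0.11 to 0.29, adjusted p 0.54). Parp1 passed in none of the 7 comparisons. Ordered by group mean, CYT was lowest, followed by untreated, IL-1βlow + CYT and IL-1βlow cells, and no neighbours in that order passed the test.

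Parp14, a mono-ADP-ribosyltransferase with macrodomains that bind ADP-ribose, had 23.5, 25.6 and 27.4 CPM in untreated cells and 27.4, 28.5 and 31.6 CPM in IL-1βlow cells. It had 64.1, 67.7 and 83.3 CPM in CYT cells and 112, 114 and 133 CPM in IL-1βlow + CYT cells. The 4 groups followed each other without overlap, untreated and IL-1βlow cells only narrowly, and the top untreated and lowest IL-1βlow libraries round to the same value. Parp14 rose 2.82-fold with CYT (log2 1.49, SE 0.11, adjusted p 6.1e-08, edgeR quasi-likelihood test) and 4.70-fold in IL-1βlow + CYT against untreated cells (log2 2.23, SE 0.12, adjusted p 3.9e-09). The doubly treated cells were 1.67-fold above CYT cells (log2 0.74, SE 0.11, adjusted p 7.4e-05), below the fold minimum. The difference between the CYT response with and without IL-1βlow was 0.54 on the log2 scale (SE 0.16, adjusted p 0.016).

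The genes with the closest pattern to Parp14 were Ryr3, a ryanodine receptor calcium channel, Aox1, an aldehyde oxidase, and Irgm2, an interferon-inducible GTPase. Their root-mean-square distances to it were 0.247, 0.285 and 0.316 log2 units over the 12 libraries, each gene centred on its untreated mean. The closest of the other 6 genes, Dtx3l, lay at 0.705. Compared over the 4 group means instead, only Aox1 stayed among the 3 genes nearest to Parp14.

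Parp12, a zinc-finger mono-ADP-ribosyltransferase of the interferon response, had 34.4, 36.0 and 33.7 CPM in untreated cells and 39.3, 41.3 and 32.3 CPM in IL-1βlow cells. It had 77.2, 95.2 and 109 CPM in CYT cells and 57.0, 58.3 and 52.4 CPM in IL-1βlow + CYT cells. Both challenged groups lay above both unchallenged groups, and the CYT libraries lay above the doubly treated ones. Parp12 rose 2.70-fold with CYT (log2 1.43, SE 0.12, adjusted p 1.9e-07, edgeR quasi-likelihood test). In IL-1βlow + CYT cells it was 1.61-fold above untreated cells (log2 0.69, SE 0.12, adjusted p 0.00078) and below CYT cells by a log2 difference of -0.74 (SE 0.12, adjusted p 0.00015), both short of the fold minimum. The CYT response with IL-1βlow was smaller than without it by -0.86 on the log2 scale (SE 0.17, adjusted p 0.0015). Without CYT replicate 1 this difference was -1.01 and passed.

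Parp10, a mono-ADP-ribosyltransferase that also binds ubiquitin, had 40.0, 40.1 and 40.7 CPM in untreated cells and 41.9, 48.4 and 37.1 CPM in IL-1βlow cells. It had 71.2, 92.3 and 88.5 CPM in CYT cells and 58.7, 60.3 and 53.6 CPM in IL-1βlow + CYT cells. The order of groups was that of Parp12, again with no overlap between challenged and unchallenged libraries or between the challenged groups. Parp10 rose 2.09-fold with CYT (log2 1.06, SE 0.11, adjusted p 1.8e-06, edgeR quasi-likelihood test), and 0.99 on the log2 scale without CYT replicate 2, under the fold minimum. Its log2 difference of IL-1βlow + CYT from CYT cells was -0.55 (SE 0.11, adjusted p 0.001) and from untreated cells 0.51 (SE 0.11, adjusted p 0.004). The interaction of IL-1βlow and CYT was -0.62 (SE 0.16, adjusted p 0.0075). Parp10 and Parp12 were each other's closest pattern among the 7 genes, at 0.214 log2 units.

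In the RefSeq annotation of GRCr8, Parp12 shares 10549 bases of its span with Tbxas1, and Parp10 shares 78 bases with Plec. The strand setting of the read counting is not given in the sources used here. Tbxas1, thromboxane synthase, was at 2.15 CPM in untreated and 0.741 CPM in CYT cells, a log2 change of -1.52 (edgeR quasi-likelihood adjusted p 8.2e-05). Plec, the cytoskeletal linker plectin, had a log2 difference of -0.53 in the same comparison (adjusted p 0.00044). Both values have the sign opposite to that of the Parp gene they overlap.

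Parp9 had 11.4, 12.1 and 11.9 CPM in untreated cells and 11.8, 10.7 and 12.8 CPM in IL-1βlow cells. It had 17.2, 22.6 and 32.5 CPM in CYT cells and 16.8, 17.9 and 24.2 CPM in IL-1βlow + CYT cells. Challenged libraries lay above unchallenged ones, and the challenged groups overlapped. Parp9 rose 2.04-fold with CYT (log2 1.03, SE 0.20, adjusted p 0.00047, edgeR quasi-likelihood test). Without CYT replicate 3, the highest library, the log2 fold change was 0.78, under the fold minimum, and without replicate 3 of every group it was 0.74. With the replicate number as a block it was 0.99, which also ends the call. The log2 difference of IL-1βlow + CYT from CYT cells was -0.30 (95% confidence interval -0.71 to 0.12, adjusted p 0.22), with the lower value in the doubly treated library of all 3 same-numbered pairs, and -0.28 with the block (adjusted p 0.1).

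Dtx3l, which encodes the ubiquitin ligase that binds PARP9, had 16.0, 13.2 and 14.0 CPM in untreated cells and 13.1, 13.4 and 14.1 CPM in IL-1βlow cells. It had 27.8, 25.6 and 38.3 CPM in CYT cells and 24.9, 24.3 and 34.5 CPM in IL-1βlow + CYT cells. As for Parp9, replicate 3 was highest in both challenged groups, and those groups overlapped. Dtx3l rose 2.12-fold with CYT (log2 1.09, SE 0.17, adjusted p 6.2e-05, edgeR quasi-likelihood test). Its log2 fold change was 0.92 without CYT replicate 3 and 0.86 without replicate 3 of every group. In IL-1βlow + CYT against untreated cells it was 0.95 (SE 0.17, adjusted p 0.00071), and it exceeded the fold minimum at 1.01 without untreated replicate 1, at 1.02 without IL-1βlow + CYT replicate 1 and at 1.04 without IL-1βlow + CYT replicate 2. The doubly treated cells differed from CYT cells by -0.13 (95% confidence interval -0.48 to 0.21, adjusted p 0.52), again lower in all 3 same-numbered pairs, and -0.13 with the block (adjusted p 0.39).

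CYT replicate 3 was also the highest of the 3 CYT libraries for the interferon regulatory factors Irf1, Irf7 and Irf9. Irf1, a transcription factor induced by interferon-γ, was at 195, 283 and 341 CPM in the CYT replicates. The same library was highest for Parp12, Parp14 and Nampt but not for Parp10 or Parp1. The part of this library difference in the gene changes was not tested beyond the values given without it.

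Parp9, Dtx3l and Parp14 all map to chromosome 11, and Parp9 and Dtx3l overlap by 185 bases on opposite strands. Within libraries, the log2 ratio of Parp9 to Dtx3l counts averaged -0.28 ± 0.19 (SD, n = 3) in untreated, -0.21 ± 0.10 in IL-1βlow, -0.37 ± 0.28 in CYT and -0.51 ± 0.06 in IL-1βlow + CYT cells. Its 6 comparisons between groups gave two-sided exact permutation p-values from 0.1 to 0.7, where 0.1 is the smallest that 3 against 3 libraries allow. The log2 ratio of Parp14 to Parp9 went from 1.11 ± 0.09 in untreated and 1.61 ± 0.27 in CYT to 2.62 ± 0.15 in IL-1βlow + CYT cells. The ratio of Parp14 to Dtx3l was 0.82 ± 0.23, 1.24 ± 0.14 and 2.11 ± 0.15 in the same groups. In both ratios every doubly treated library lay above every other library, and these Parp14 ratios were chosen after the values were seen and are given without a test. Parp9 and Dtx3l were each other's closest pattern among the 7 genes, at 0.192 log2 units, with Dtx3l ranking 7 among all genes nearest to Parp9 and Parp9 ranking 5 among those nearest to Dtx3l.

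**Figure D2:**
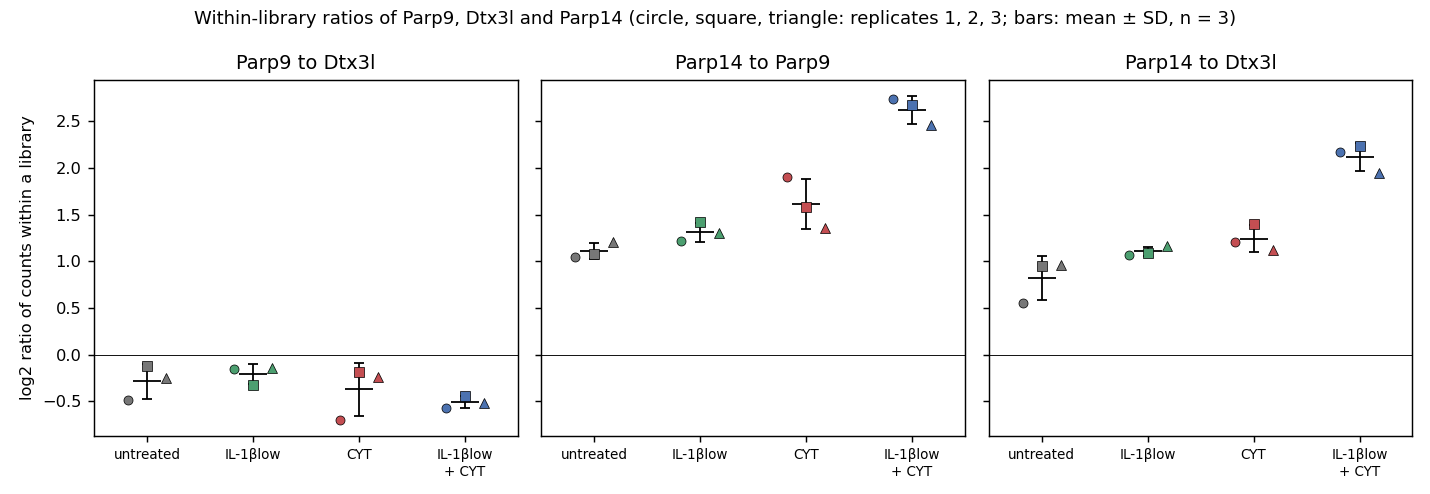
Log2 ratio of counts within each library for the chromosome 11 genes, with symbols for replicates 1, 2 and 3 and bars for the mean ± SD of 3 libraries. The Parp9 to Dtx3l ratio stays between -0.69 and -0.12, and both Parp14 ratios are highest in IL-1βlow + CYT cells, at 1.94 to 2.74.

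Nampt, the NAD salvage enzyme, had 34.7, 32.4 and 34.1 CPM in untreated cells and 25.1, 22.1 and 32.7 CPM in IL-1βlow cells. It had 72.9, 80.1 and 101 CPM in CYT cells and 35.0, 36.1 and 58.0 CPM in IL-1βlow + CYT cells. All CYT libraries lay above all others, and replicates 1 and 2 of the doubly treated cells were close to the untreated range while replicate 3 stood above it. Nampt rose 2.51-fold with CYT (log2 1.33, SE 0.19, adjusted p 3e-05, edgeR quasi-likelihood test). The doubly treated cells were below CYT cells by a log2 difference of -0.98 (SE 0.19, adjusted p 6e-04), just under the fold minimum. Against untreated cells their difference was 0.35 (95% confidence interval -0.06 to 0.76, adjusted p 0.21). The interaction was -0.64 (SE 0.27, adjusted p 0.075). With the replicate number as a block it was -0.63 (adjusted p 0.0061), though the untreated libraries it draws on were not taken as paired.

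The difference of Nampt between doubly treated and CYT cells passed when single libraries were left out. Leaving out untreated or IL-1βlow replicate 1 or 2 gave -1.01 on the log2 scale, CYT replicate 1 gave -1.11, CYT replicate 2 gave -1.02, and IL-1βlow + CYT replicate 3 gave -1.25. The nearest pattern to Nampt among all genes was that of Cebpg, a bZIP transcription factor, at 0.140 log2 units, followed by Prkca and Gtf2h1. Compared over the 4 group means instead of the 12 libraries, 0 of these genes stayed among the 3 nearest.

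IL-1βlow alone passed for 0 of the 7 genes, against 0.433% of all genes, and 0 of 7 had an unadjusted p under 0.05. DESeq2 and edgeR's exactTest also passed 0. The values ran from -0.34 for Nampt (SE 0.19, edgeR quasi-likelihood adjusted p 0.43) to 0.19 for Parp14 (SE 0.12, adjusted p 0.46). Their 95% confidence intervals were -0.75 to 0.07 for Nampt and -0.05 to 0.44 for Parp14, so changes of the size seen with CYT lay outside them. Parp14 was the member whose groups did not overlap, as in 23.7% of all genes. Over the alternative fits the Nampt value ran from -0.52 to -0.23 and its adjusted p from 0.0079 to 0.87, without passing.

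**Figure D3:**
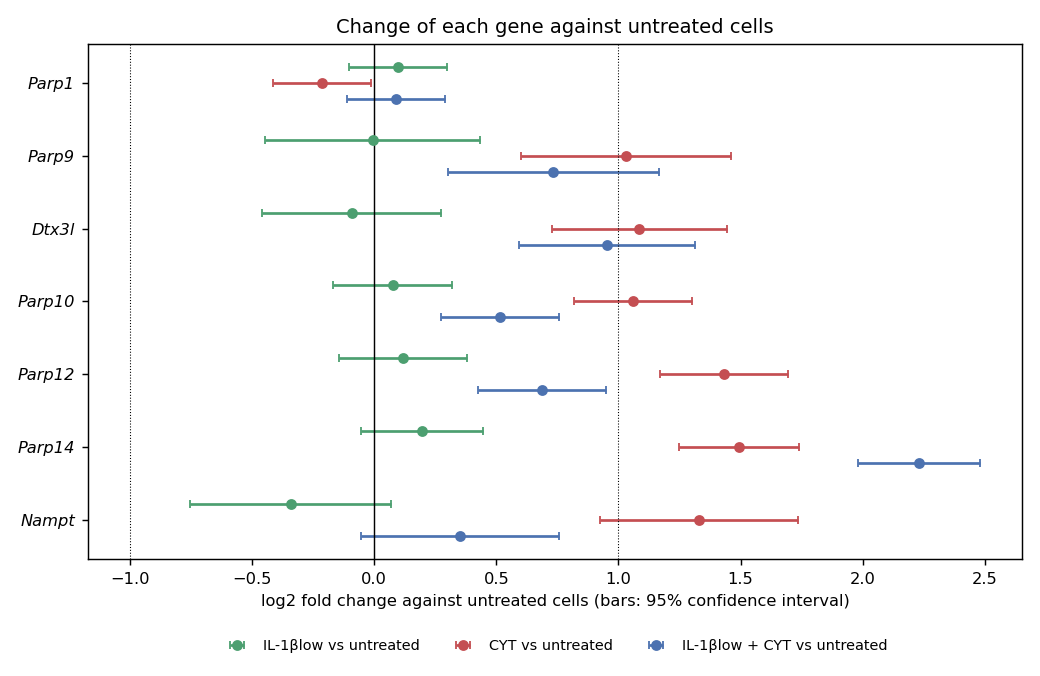
Log2 fold change of each gene against untreated cells in IL-1βlow, CYT and IL-1βlow + CYT cells, with 95% confidence intervals from the edgeR quasi-likelihood fit and dotted lines at the fold minimum of 1 used for the challenged groups. Parp14 has its larger value in IL-1βlow + CYT (2.23), whereas Parp9, Dtx3l, Parp10, Parp12 and Nampt have theirs in CYT (1.03 to 1.43).

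In IL-1βlow + CYT against untreated cells, 1 of the 7 genes passed, Parp14, against 3.85% of all genes that rose. Dtx3l, Parp12, Parp10 and Parp9 had adjusted p-values from 0.00071 to 0.017 in the edgeR quasi-likelihood test without passing, with log2 differences from 0.51 to 0.95. With them, 5 of 7 genes had an adjusted p below 0.05 and a higher level, against 12.2% of all genes.

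Against CYT cells, 0 of 7 passed, while 12.5% of all genes did, and DESeq2 and exactTest passed 0 as well. An unadjusted p under 0.05 was found for 5 of 7, the same 5 genes with an adjusted p under 0.05, against 50.7% of all genes. Those were Parp10, Parp12 and Nampt with lower values in the doubly treated cells and Parp1 and Parp14 with higher ones. The doubly treated and CYT libraries did not overlap for these 5 genes, which held for 54.4% of all genes. The median difference was -0.30 over the 7 genes and 0.02 over all genes tested.

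The interaction term, the CYT response with IL-1βlow minus that without, passed for 0 of 7, against 10.7% of all genes, and DESeq2 passed 0. It had an unadjusted p under 0.05 for 4 of 7, and an adjusted p under 0.05 for Parp10, Parp12 and Parp14, or 3 of 7, against 37.3% of all genes. For Dtx3l it was -0.04 (95% confidence interval -0.55 to 0.46), for Parp9 -0.29 (-0.90 to 0.32) and for Parp1 0.20 (-0.08 to 0.49).

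Within preconditioned cells, CYT raised 2 of the 7 genes, against 2.92% of all genes that rose. Parp14 rose 4.10-fold (log2 2.04, SE 0.12, edgeR quasi-likelihood adjusted p 1.4e-08) and Dtx3l 2.06-fold (log2 1.05, SE 0.17, adjusted p 0.00052). Without IL-1βlow + CYT replicate 3 the Dtx3l value was 0.86, under the fold minimum. The strong challenge against the low dose, CYT against IL-1βlow cells, raised 5 of 7, against 9.24% of all genes. Those were Nampt at 3.19-fold, Parp12 at 2.49-fold, Parp14 at 2.46-fold, Dtx3l at 2.26-fold and Parp9 at 2.05-fold, and Parp10 was 1.98-fold higher, just under the minimum. There Parp9 was under the minimum without IL-1βlow replicate 2 (log2 1.00 after rounding) or CYT replicate 3 (0.79). Parp10 passed without untreated replicate 1 or 2 or IL-1βlow + CYT replicate 1 (each 1.00 after rounding), without IL-1βlow replicate 2 (1.11) and without CYT replicate 1 (1.13).

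Of the 11 other PARP family genes tested, CYT raised 2, Parp3 and Parp8, and lowered 0, against 10.0% and 11.6% of all genes. Parp3, a nuclear mono-ADP-ribosyltransferase that acts at DNA breaks, went from 8.33 ± 0.382 CPM in untreated to 35.3 ± 4.56 CPM in CYT cells and was at 17.7 ± 1.35 CPM in IL-1βlow + CYT cells (SD, n = 3). Its CYT change was 2.08 on the log2 scale (SE 0.13, edgeR quasi-likelihood adjusted p 6.3e-09), where the 7 chosen genes ran from -0.21 to 1.49. Parp8, a mono-ADP-ribosyltransferase, went from 61.1 ± 1.74 to 192 ± 30.1 CPM and was at 99.0 ± 13.6 CPM in the doubly treated cells (CYT log2 1.65, SE 0.12, adjusted p 4.8e-08).

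The interaction passed for both, at -1.14 for Parp3 (SE 0.18, edgeR quasi-likelihood adjusted p 0.00028) and -1.05 for Parp8 (SE 0.17, adjusted p 0.00038). Against CYT cells the doubly treated cells passed for 0 of the 11, where 12.5% of all genes passed. An unadjusted p under 0.05 was found for 3 of 11, and DESeq2 passed 1. The other members with the highest CPM were Tnks, the tankyrase, with a CYT difference of -0.11 (adjusted p 0.23), and Zc3hav1, the antiviral zinc-finger protein, with 0.53 (adjusted p 0.00057). The median CYT change of the 11 was 0.29.

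Among the 4 other Deltex ubiquitin ligase genes, CYT raised Dtx4 and Dtx1 and lowered 0, against 10.0% and 11.6% of all genes. Dtx4 went from 1.62 ± 0.591 to 16.7 ± 2.15 CPM (log2 3.36, SE 0.24, edgeR quasi-likelihood adjusted p 2.3e-08) and was lower in the doubly treated cells, at 6.59 ± 0.820 CPM (log2 -1.34 against CYT, SE 0.20, adjusted p 8.5e-05). Dtx1 went from 5.05 ± 0.471 to 11.2 ± 2.35 CPM (log2 1.15, adjusted p 0.00023). Dtx2 had its highest mean in the doubly treated cells, 0.78 above CYT on the log2 scale (adjusted p 0.00031), under the fold minimum.

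Of 11 genes for enzymes that remove ADP-ribose and proteins that read it or steer its transfer, 0 passed with CYT, by DESeq2 and exactTest as well, and the median log2 difference was -0.22. Over all genes tested, 10.0% rose and 11.6% fell. An unadjusted p under 0.05 was found for 8 of 11, and an adjusted p under 0.05 for 2 with higher and 5 with lower values, against 62.3% of all genes in either direction. The genes with the highest CPM were Adprs, a hydrolase that cleaves ADP-ribose from serine, at 0.59 (edgeR quasi-likelihood adjusted p 0.00063), and Adprh, which cleaves it from arginine, at 0.49 (adjusted p 0.0047). The lower values, named after they were seen, were those of Hpf1, the cofactor that directs PARP1 to serine, at -0.74 (SE 0.10, adjusted p 1.6e-05), Aplf at -0.84 (SE 0.31, adjusted p 0.029), Macrod2 at -0.65 (SE 0.23, adjusted p 0.024), Parg, which degrades ADP-ribose chains, at -0.51 (SE 0.14, adjusted p 0.0064), and Oard1 at -0.47 (SE 0.14, adjusted p 0.011). Hpf1 was 0.72 higher in the doubly treated than in CYT cells (SE 0.10, adjusted p 3.8e-05), under the fold minimum.

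Of 20 genes of NAD synthesis and transport, 10 passed the filter. Naprt and Qprt, which start NAD synthesis from nicotinic acid and quinolinate, and the tryptophan-route genes Ido1, Ido2, Tdo2, Kmo, Kynu, Haao and Acmsd did not, nor did Nmrk2. CYT raised 1 of the 10, near the 10.0% of all genes that rose. The gene was Nmnat3, which encodes the mitochondrial enzyme that completes NAD from the product of NAMPT. It went from 4.76 ± 0.538 to 10.7 ± 1.43 CPM (log2 1.17, SE 0.16, edgeR quasi-likelihood adjusted p 2.3e-05) and was at 5.57 ± 0.130 CPM in the doubly treated cells. Like Nampt, it was below CYT cells there by slightly less than the fold minimum, at -0.94 (SE 0.16, adjusted p 0.00023). Slc25a51, the mitochondrial NAD carrier, differed by 0.02 with CYT (95% confidence interval -0.20 to 0.24), and Nadk, which phosphorylates NAD, by 0.18 (0.01 to 0.35).

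Among 9 tested genes of other NAD consumers and nicotinamide clearance, CYT raised 3 and lowered 0, against 10.0% and 11.6% of all genes. Sirt3, the main mitochondrial deacetylase, went from 22.1 ± 1.58 to 55.5 ± 4.83 CPM (log2 1.33, SE 0.11, edgeR quasi-likelihood adjusted p 1.5e-07). Sirt5, a mitochondrial desuccinylase, went from 31.9 ± 1.63 to 65.6 ± 6.59 CPM (log2 1.04, SE 0.10, adjusted p 5.4e-07). Nnmt, which methylates nicotinamide and so removes it from salvage, went from 7.16 ± 0.585 to 15.8 ± 1.41 CPM (log2 1.14, SE 0.13, adjusted p 4.8e-06). In the doubly treated cells Sirt3 and Nnmt were lower than in CYT cells, by -1.17 (SE 0.11, adjusted p 1.3e-06) and -1.25 (SE 0.13, adjusted p 4.1e-06), and the interaction passed for both. Cd38 and Bst1, the NAD glycohydrolases, did not pass the filter. Sarm1, an NAD hydrolase known from axons, was 0.80 above CYT in the doubly treated cells (SE 0.12, adjusted p 7.9e-05), under the fold minimum.

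**Figure D4:**
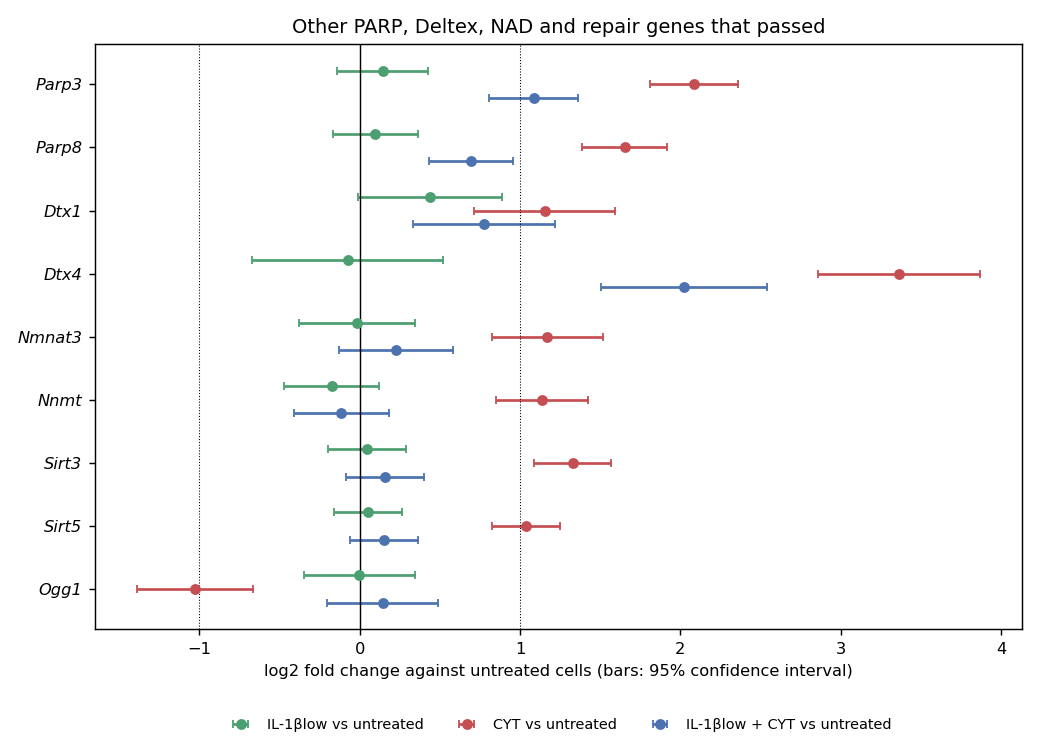
Log2 fold change against untreated cells, with 95% confidence intervals, of the listed PARP, Deltex, NAD and repair genes that passed with CYT. Dotted lines mark the fold minimum of 1. For Parp3, Parp8, Dtx1, Dtx4, Nmnat3, Nnmt, Sirt3 and Sirt5 the IL-1βlow + CYT value lies nearer to 0 than the CYT value. Ogg1 is the gene with a CYT value below 0 (-1.02).

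PARP1's partner pathway, single-strand break and base excision repair, had 12 tested genes, of which CYT lowered 1 and raised 0. Over all genes tested, 11.6% fell and 10.0% rose. Ogg1, the glycosylase that excises oxidised guanine, went from 12.4 ± 0.327 to 6.08 ± 1.75 CPM (log2 -1.02, SE 0.17, edgeR quasi-likelihood adjusted p 0.00012), a call that DESeq2 did not make. It was at 13.7 ± 0.640 CPM in the doubly treated cells, higher than in CYT cells by 1.17 (SE 0.17, adjusted p 5.8e-05), with an interaction of 1.17 (SE 0.23, adjusted p 0.0015). Fen1, the flap endonuclease, had values of the same signs under the fold minimum, -0.42 with CYT (adjusted p 0.00089) and 0.59 in doubly treated against CYT cells (adjusted p 8.3e-05). Apex1, the abasic-site nuclease, had the opposite signs, 0.53 and -0.35 (adjusted p 0.00043 and 0.011).

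Among genes of interferon signalling, CYT raised Irf1, Irf7, Irf9 and Stat2. In the doubly treated cells Irf7, a factor of type I interferon responses, was at 13.1 ± 1.44 CPM against 105 ± 32.5 CPM in CYT cells (log2 -2.99, SE 0.19, edgeR quasi-likelihood adjusted p 4.9e-08). Irf1 was at 128 ± 5.52 against 273 ± 73.8 CPM (log2 -1.10, SE 0.15, adjusted p 2.9e-05). Irf9 and Stat2 had log2 differences of -0.84 and -0.92 in this comparison (adjusted p 0.00038 and 4.4e-06), under the fold minimum. Of the members whose windows held the core of the interferon-stimulated response element, Parp14 had 0.74, Parp12 -0.74 and Dtx3l -0.13. A link between motifs and these values was not tested.

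For the remaining comparisons, the listed genes that passed are given beside the share of all genes. IL-1βlow against untreated cells passed 0.433% of all genes. IL-1βlow alone passed for 0 genes in each of the 6 lists of PARP, Deltex, ADP-ribose, NAD and repair genes, also with DESeq2 and exactTest, and an unadjusted p under 0.05 occurred for 1 gene each among the other PARP, Deltex, NAD-consuming and repair genes and for 0 in the other lists. In IL-1βlow + CYT against untreated cells the genes that passed included Parp3 (log2 1.09, SE 0.13, edgeR quasi-likelihood adjusted p 2e-05), Dtx4 (log2 2.02, SE 0.24, adjusted p 2e-05) and Irf1 (log2 1.86, SE 0.15, adjusted p 4.5e-07), each higher. In that comparison 3.85% of all genes rose. Within preconditioned cells, CYT raised Dtx4, Irf1 and Irf7, where 2.92% of all genes rose. CYT against IL-1βlow cells passed for Parp3, Parp8, Dtx4, Nmnat3, Nnmt, Sirt3, Irf1, Irf7, Irf9 and Stat2 as higher, and for Ogg1 as lower. Higher were 2 of 11 other PARP, 1 of 4 Deltex, 0 of 11 ADP-ribose, 1 of 10 NAD synthesis and 2 of 9 NAD-consuming genes. Of all genes, 9.24% rose in this comparison. Among the 12 repair genes 1 was lower.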

How the data were processed

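Polyadenylated RNA of INS-1E cells was sequenced in 12 libraries. Rn45s, the ribosomal RNA precursor, still took 6.89% to 11.1% of the counts of a library, and its part in the results was not tested. The authors used a TruSeq kit, FastQC for read quality, rfastp for trimming, Rsubread for alignment to the mRatBN7.2 assembly and featureCounts for gene counts. They deposited raw counts by gene symbol for 12 columns, each matched to a sample by its label. The strand setting is not given in the sources used here.

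From these counts, edgeR 4.0.16 (R 4.3.3) kept each gene above 1 CPM in 2 or more libraries, applied TMM normalization and fitted all 12 libraries in a quasi-likelihood model, with Benjamini-Hochberg adjustment over 14324 genes. The study used the exactTest with the same filter and thresholds. CPM values here are TMM-normalized. CPM also reflects transcript length, so levels were compared between groups, and between genes CPM served only to pick genes to name. Replicate libraries differed beyond sampling noise, with chi-square per degree of freedom from 6.67 to 25.3. Patterns were compared on log2 CPM with a prior count of 2. The text names the 7 chosen genes and the 3 nearest patterns of Parp14 and Nampt. From the lists other than cell markers it names genes that passed in any comparison and the 2 others of highest CPM. Cell markers are named in part. Some listed values are not reported here. Genes overlapping the chosen ones were added after the values were seen. The genes and lists were chosen with earlier results of these data known. Scripts were tested on simulated data. Alternatives were RLE size factors, DESeq2 1.42.0, exactTest, 2 other filters, a fit to the 2 groups compared, a replicate block, adjusted p below 0.05 with no fold minimum, and leaving out each library in turn. Leaving out replicate 3 of all groups was added after seeing the data. The labels do not say what a replicate number marks. In their deviations from group means, same-numbered libraries correlated above 0.1 in 9 of 9 pairs among the treated groups, so the numbers were taken as pairs there, and in 4 of 9 pairs with untreated libraries, where they were not.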

Additional observations from a re-analysis of the deposited data

Results flagged for a closer look

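The response to CYT differed with and without IL-1βlow for 3 of the 7 genes, by the interaction term of edgeR's quasi-likelihood fit at an adjusted p below 0.05, which 37.3% of all genes met. The difference was -0.62 on the log2 scale for Parp10 (adjusted p 0.0075), -0.86 for Parp12 (adjusted p 0.0015) and 0.54 for Parp14 (adjusted p 0.016). Parp10 and Parp12 thus had the smaller CYT response in preconditioned cells and Parp14 the larger one. Over the alternative fits the adjusted p reached 0.067 for Parp14, above 0.05, and 0.022 for Parp10 and 0.0053 for Parp12. Of these 3 genes, only Parp12 without CYT replicate 1 exceeded the log2 minimum of 1 in size, among the leave-out fits run. With the replicate number as a block, Nampt also had an adjusted p below 0.05, at 0.0061, with a difference of -0.63. Groups of 3 libraries are too small for the test of single outlying libraries.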

How the results depend on the processing

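Over 1015 alternative values of the 7 genes' log2 fold changes, 947 kept their direction and side of the threshold, 12 fell under it, 40 went past it and 16 changed sign, none passing. Part of the 40 came from the alternative with no fold minimum, where the rule changed and not the value. Parp9 in IL-1βlow against untreated cells became 0.00634 with RLE size factors, 0.00621 with DESeq2 and 0.0118 without a filter, and Parp1 in IL-1βlow + CYT against IL-1βlow became 0.00967 without a filter. With libraries left out, these ran from -0.0689 to 0.0522 and from -0.107 to 0.0718. The other sign changes came with libraries left out, from -0.0315 to 0.171 for Parp10 in IL-1βlow against untreated, -0.0112 to 0.171 for Parp1 in IL-1βlow + CYT against untreated, and -0.313 to 0.0340 for Dtx3l against CYT and -0.221 to 0.133 for its interaction. The cause was not tested.

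With an adjusted p below 0.05 and no fold minimum, 5 genes passed in IL-1βlow + CYT against untreated, 5 against CYT, 6 against IL-1βlow and 3 in the interaction, where the main counts were 1, 0, 2 and 0. RLE size factors and no filter each gave 1, Nampt, in IL-1βlow + CYT against CYT. With libraries left out, the counts ran from 4 to 6 for CYT against untreated, 1 to 2 for IL-1βlow + CYT against untreated, 0 to 1 against CYT, 1 to 2 against IL-1βlow, 3 to 6 for CYT against IL-1βlow, 0 to 1 for the interaction and 0 to 0 for IL-1βlow against untreated. Without replicate 3 of every group, Nampt, Parp10, Parp12 and Parp14 still rose with CYT.

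Over all genes, IL-1βlow against untreated passed 62, but 139 with DESeq2, 138 with exactTest, 229 without a filter, 141 with the replicate block, 193 at an adjusted p below 0.05 alone, and 16 to 496 with libraries left out. At that looser rule the other comparisons passed 8926 (main 3096) for CYT against untreated, 3124 (858), 7267 (1785) and 1855 (556) for IL-1βlow + CYT against untreated, CYT and IL-1βlow, 8363 (2731) for CYT against IL-1βlow and 5337 (1530) for the interaction.

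The replicate block changed 1 call of the 7 genes, Parp9 in CYT against untreated, at 0.99, and none in the comparisons among treated groups, where same-numbered libraries correlated at 0.116 to 0.520. With untreated libraries they correlated at -0.188 to 0.181, and 9 of 12 libraries correlated best with their own number. ExactTest and the fit to the groups compared could not be run for the interaction. Parp9 and Dtx3l had the fewest counts of the 7 genes. In CYT against untreated cells the SE was 0.20 for Parp9, 0.17 for Dtx3l and 0.19 for Nampt. The part of depth in these values was not tested.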
